A study of Homo sapiens with 10 samples.

Results

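The subject is the chaperonin TRiC, also called CCT, measured through the genes of its subunits. The members were set by name as TCP1 and CCT2, CCT3, CCT4, CCT5, CCT6A, CCT7 and CCT8, 8 genes in all, and every probe set whose platform annotation names only one of them was taken. That gave 7 probe sets, 1 for each gene but TCP1, out of 12558 probe sets on the array after removal of Affymetrix controls. TCP1 was named only together with another gene, by 1 probe set, so it has no value here. RNA came from ST486, an established human Burkitt's lymphoma line in which MYC is the translocated oncogene. The 5 arrays of the STK38 shRNA group came from cells that carried a lentiviral short hairpin RNA against the kinase gene STK38 for 60 h, and the 5 arrays of the non-target shRNA group from cells with a control hairpin for the same time. All cells were lentivirally transduced, and the labels name 1 hairpin against STK38, so other effects of that hairpin cannot be told apart from those of STK38 loss. The series title concerns the control of MYC-driven transcription by STK38. Separate cultures are not stated for the arrays, so the p-values below rest on variation among these arrays, part or all of which may be technical.

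TRiC is a large barrel of stacked rings in the cytosol, and each ring holds a single copy of each of the paralogous subunits at a fixed place. Unfolded protein enters the cavity, ATP hydrolysis closes a built-in lid, and actin, tubulin and many proteins with WD40 repeats depend on this step to fold. Work on the yeast complex placed the subunits on opposite sides of the ring that differ in ATP affinity: the orthologues of TCP1, CCT2, CCT4 and CCT5 bind ATP more readily than those of CCT3, CCT6A, CCT7 and CCT8. Heat shock factors and MYC have both been linked to transcription of subunit genes in other cells.

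STK38 itself was lower on every STK38 shRNA array than on every non-target array at its 3 probe sets, with log2 differences of -2.19 to -0.82. The non-target arrays were above background at each of these probe sets, while 5, 4 and 2 of the 5 STK38 shRNA arrays were, the 2 at the probe set with -0.82, so the STK38 shRNA values lie near the floor. MYC was lower in the same way at its 4 probe sets, by -1.64 to -1.38; its part in the subunit values was not tested. STK38 shRNA replicate 4 stood apart, with a mean correlation of 0.978 with its group where the other arrays had 0.991 to 0.995, and its 75th percentile was 3.54, below the 3.91 to 4.02 of all other arrays. CCT3 was lowest on that array and CCT7 was highest among the STK38 shRNA arrays there; without it CCT3 differed by -0.44 (limma adjusted p = 0.000374) and CCT7 by -0.25 (limma adjusted p = 0.00574). Of 8 B cell markers on the array 6, among them CD79A, CD79B and MS4A1, exceeded the array background on all 10 arrays, while PAX5 and CR2 did so on none. Of the 6 T cell and 2 erythroid markers 0 exceeded it on any array, and of the 6 monocyte, 6 epithelial and 5 fibroblast or endothelial markers KRT8 alone did so on all arrays. Summed log2 levels reached higher with the STK38 shRNA for all of these lists: 8.67 to 9.73 against 8.70 to 8.91 with the non-target shRNA for T cell, 3.18 to 3.72 against 3.42 to 3.62 for erythroid, 11.2 to 12.9 against 11.2 to 12.0 for monocyte, 12.62 to 14.67 against 12.29 to 13.52 for epithelial and 9.15 to 10.4 against 9.18 to 9.41 for fibroblast or endothelial markers. The B cell sum was 35.5 to 37.0 with the STK38 shRNA, against 36.3 to 37.2 with the non-target shRNA. The groups overlapped for each list, and the part of these sums in the subunit values was not tested. Besides the T cell and erythroid markers, 4 monocyte, 3 epithelial and 4 fibroblast or endothelial markers were above background on no array. The sums of these lists thus hold many values near the floor and do not measure amounts of such cells. The median of STK38 shRNA replicate 4 was 2.25, against 2.12 to 2.17 on the other arrays, and its part in the upper ends was not tested.

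CCT3, the gamma subunit, and CCT7, the eta subunit, were lower on every STK38 shRNA array than on any non-target array, with means 1.40-fold and 1.17-fold lower. The other 5 subunit genes measured did not pass the test in either direction. Thus 2 of 7 members were called (28.6%), where 29.9% of all 7535 probe sets tested were called at an adjusted p under 0.05 in limma, a share near that background. Both called members were lower, as were 15.8% of the probe sets tested, and limma called 0 members higher, against 14.1%; at an unadjusted p under 0.05 the count was 2 as well, the same members. The groups did not overlap at the same 2 members, beside 22.1% of the probe sets tested. Both lie on the side of the ring with lower ATP affinity, where 2 of 4 genes were called, and 0 of the 3 genes measured on the other side were; the sides were not tested against each other. In a bulk RNA extract, fewer cells with a transcript and less transcript per cell cannot be told apart.

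The RefSeq promoter windows of CCT3 and CCT7, the members called lower, are shown with that of CCT2, which did not pass the test, so that the sequences before their start sites can be compared. Each is 300 bases from GRCh38.p14, from 250 bases before the annotated start, read 5′ to 3′ on the gene's strand, with capitals marking the CCAAT box or its reverse complement ATTGG. CCT3 is at chr1:156338243-156338542 on the minus strand, CCT7 at chr2:73234058-73234357 on the plus strand and CCT2 at chr12:69585209-69585508 on the plus strand.
CCT3: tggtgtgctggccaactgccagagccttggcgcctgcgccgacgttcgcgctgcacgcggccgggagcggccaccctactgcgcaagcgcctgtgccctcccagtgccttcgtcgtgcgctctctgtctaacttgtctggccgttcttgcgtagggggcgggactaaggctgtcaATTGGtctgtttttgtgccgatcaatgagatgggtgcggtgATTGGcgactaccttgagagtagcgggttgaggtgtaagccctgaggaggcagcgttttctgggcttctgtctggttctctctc
CCT7: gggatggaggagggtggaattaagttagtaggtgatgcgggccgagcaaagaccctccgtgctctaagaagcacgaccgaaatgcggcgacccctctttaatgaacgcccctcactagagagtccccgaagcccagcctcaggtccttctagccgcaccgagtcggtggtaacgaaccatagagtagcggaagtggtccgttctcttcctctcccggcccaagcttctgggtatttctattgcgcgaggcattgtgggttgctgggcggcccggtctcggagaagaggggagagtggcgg
CCT2: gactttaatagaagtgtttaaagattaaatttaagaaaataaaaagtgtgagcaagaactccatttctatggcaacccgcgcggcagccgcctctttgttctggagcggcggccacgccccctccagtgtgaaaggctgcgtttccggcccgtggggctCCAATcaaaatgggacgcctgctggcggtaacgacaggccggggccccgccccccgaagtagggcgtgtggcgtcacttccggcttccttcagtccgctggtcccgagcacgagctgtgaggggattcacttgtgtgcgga
RefSeq gave 9 windows for 7 of the 8 genes, with 2 windows each for CCT2 and CCT4; CCT6A was not among them. The CCAAT box, bound by NF-Y, began at -75 and -34 from the start in CCT3 and at -91 in this CCT2 window, and CCT7 had 0 matches; it was in 34.6% of all 35116 RefSeq windows. The E-box CACGTG, the preferred site of MYC with MAX, was in 0 of the 9 windows and in 7.26% of all windows. The dyad of heat shock units GAANNTTC was in the TCP1 window and in the second CCT2 window, and in 6.77% of all windows. The GC box GGGCGG began at -95 in CCT3, at 13 in CCT7 and at -45 in this CCT2 window, and was in 45.0% of all windows. The ETS core CCGGAA was in this CCT2 window at -108 and -14, in the CCT5 window, and in 17.2% of all windows. Both strands were searched, and no matches in the members' windows overlapped each other. The windows of TCP1 and CCT8 also held the CCAAT box and the GC box. These are matches of letters only; of the 5 motifs the GC box was the one present in both CCT3 and CCT7.

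On the side of the ring with lower ATP affinity, CCT3 had log2 values of 8.03, 8.27, 8.23, 7.92 and 8.16 on the STK38 shRNA arrays, against 8.56, 8.69, 8.72, 8.64 and 8.45 on the non-target arrays. Every STK38 shRNA array lay below every non-target array. The means were 8.12 ± 0.15 and 8.61 ± 0.11 (SD, n = 5 each), a log2 difference of -0.49 (SE 0.083, limma adjusted p = 0.000389). The ratio of STK38 shRNA to non-target had a 95% confidence interval of 0.631 to 0.806. CCT7 had 8.53, 8.48, 8.54, 8.63 and 8.46 with the STK38 shRNA, against 8.77, 8.74, 8.79, 8.72 and 8.75 with the non-target shRNA. Again no array of the groups overlapped, and the non-target arrays had the smallest spread of any group of member values (SD 0.024). The CCT7 means of 8.53 ± 0.065 and 8.75 ± 0.024 (SD, n = 5 each) differed by -0.23 (SE 0.058, limma adjusted p = 0.00812), and the ratio had an interval of 0.784 to 0.932. For CCT3 and for CCT7 the two-sided exact permutation test over 5 against 5 arrays gave p = 0.00794, the smallest it can give.

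The remaining genes of that side did not pass the test. CCT6A, the zeta subunit, had 8.14, 8.07, 8.005, 8.18 and 8.21 with the STK38 shRNA, against 8.09, 7.92, 7.92, 8.07 and 8.13 with the non-target shRNA. Its groups overlapped, with means of 8.12 ± 0.084 and 8.03 ± 0.099 (SD, n = 5 each) and a log2 difference of 0.095 (limma adjusted p = 0.394, 95% interval -0.062 to 0.25). CCT8, the theta subunit, which promotes assembly of the whole complex in Caenorhabditis elegans, had 8.87, 9.40, 8.93, 9.02 and 9.20 with the STK38 shRNA, against 9.30, 9.15, 9.21, 9.09 and 9.21 with the non-target shRNA. The STK38 shRNA arrays spread on both sides of the non-target arrays, with an SD of 0.22 against 0.079. The log2 difference was -0.11 (limma adjusted p = 0.442, interval -0.30 to 0.086). STK38 shRNA replicate 2 alone lay above every non-target array, and without it the difference was -0.19 (limma adjusted p = 0.0903); without STK38 shRNA replicate 1 it was -0.054 (limma adjusted p = 0.736), and with other single arrays left out it lay between these values.

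**Figure D1:**
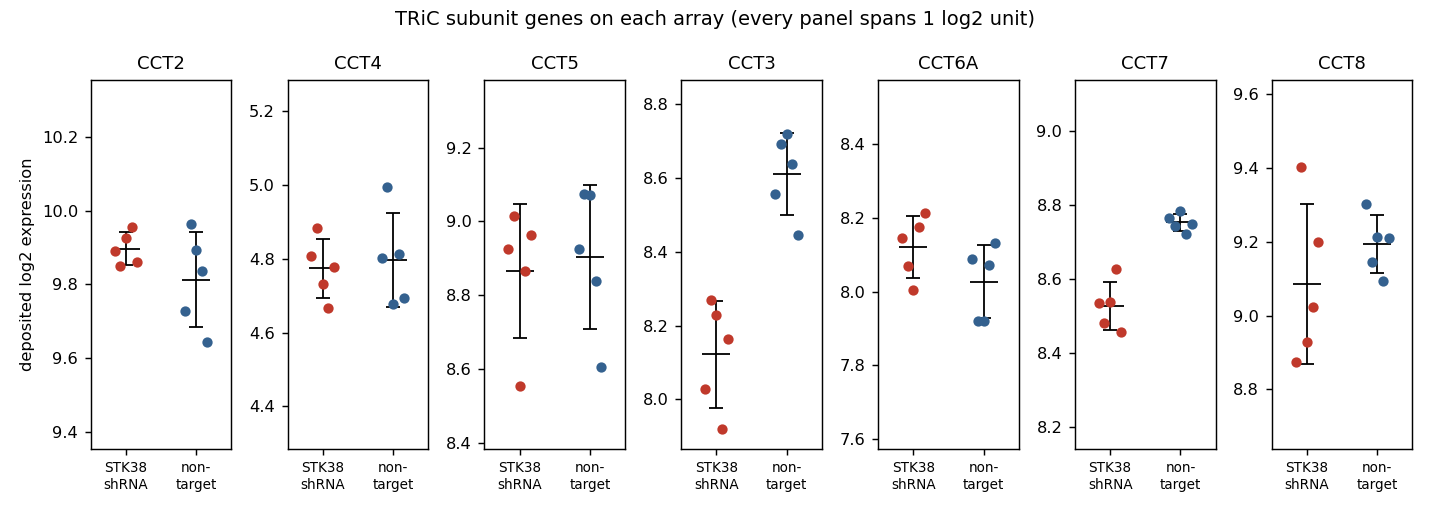
Deposited log2 expression of the 7 measured subunit genes on each array, with STK38 shRNA at left and non-target shRNA at right in each panel. Points are arrays, long ticks are group means and bars are SD (n = 5 each); each panel spans 1 log2 unit at its own position, and the groups separate for CCT3 and CCT7 alone.

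On the side with higher ATP affinity, CCT2, the beta subunit, which has also been described as a receptor for autophagy of protein aggregates, had 9.89, 9.85, 9.92, 9.96 and 9.86 with the STK38 shRNA, against 9.73, 9.96, 9.89, 9.84 and 9.64 with the non-target shRNA. All STK38 shRNA values lay within the range of the non-target values, and the log2 difference was 0.083 (limma adjusted p = 0.366, interval -0.048 to 0.21). With quantile normalization across the arrays CCT2 was called higher, by 0.17 (limma adjusted p = 0.0465), while array weights gave 0.037 (limma adjusted p = 0.657) and leaving out non-target replicate 5 gave 0.041 (limma adjusted p = 0.660). CCT4, the delta subunit, altered in a rat strain with sensory neuropathy, had 4.81, 4.88, 4.73, 4.67 and 4.78 with the STK38 shRNA, against 4.80, 5.00, 4.68, 4.81 and 4.69 with the non-target shRNA. The groups overlapped over most of their range, with a log2 difference of -0.023 (limma adjusted p = 0.910, interval -0.25 to 0.21). CCT5, the epsilon subunit, altered in a human hereditary sensory neuropathy, had 8.93, 9.02, 8.55, 8.87 and 8.96 with the STK38 shRNA, against 8.92, 9.07, 9.07, 8.84 and 8.60 with the non-target shRNA. A single low array stood in each group, STK38 shRNA replicate 3 and non-target replicate 5, and the log2 difference was -0.038 (limma adjusted p = 0.838, interval -0.26 to 0.18).

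Over the 5 members that were not called, the lowest limit of the 95% intervals was -0.30, for CCT8, and the highest was 0.25, for CCT6A (log2). For each gene, changes within its own interval, given above, could not be told from none. The median log2 difference of the 7 members was -0.038, beside 0.019 over all 5403 genes tested at 1 probe set each. CCT3 had a larger absolute difference than most genes, since 19.5% of the genes tested exceeded it, and 43.7% exceeded that of CCT7. For the uncalled members that share ran from 66.1% for CCT8 to 91.9% for CCT4. All 7 members passed the filter on dim probe sets and stood above the array background on all 10 arrays. RefSeq lists pseudogenes for several of these genes, and probe sets can bind transcripts of such near copies.

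**Figure D2:**
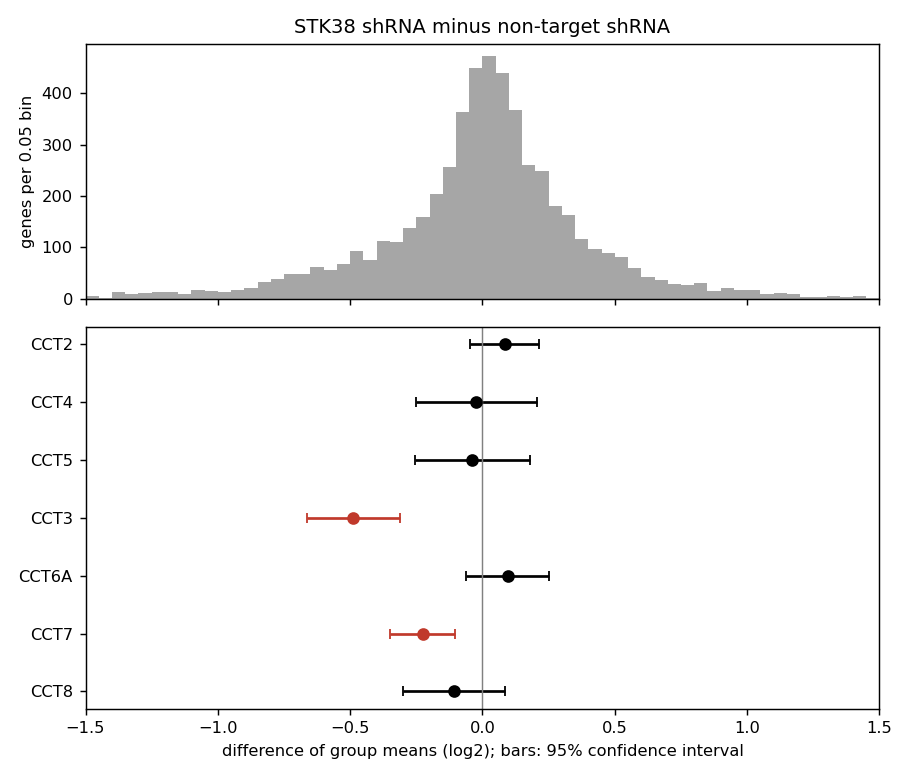
Upper panel: number of genes per bin of the log2 difference of STK38 shRNA minus non-target shRNA, over the 5403 genes tested; 67 genes beyond 1.5 in either direction are not drawn. Lower panel: the same difference for each measured subunit gene with its 95% confidence interval, red where the adjusted p was under 0.05; the intervals of CCT3 and CCT7 lie below 0 and the other 5 include it.

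Within each array, every member was also set against the mean of the other 6, which removes any shift common to the complex or the array. CCT3 stood between -0.30 and 0.11 relative to the others on the STK38 shRNA arrays, against 0.27 to 0.46 on the non-target arrays, a difference of -0.45 on the log2 scale with no overlap. CCT7 stood between 0.23 and 0.52 with the STK38 shRNA, against 0.45 to 0.63 with the non-target shRNA, so its groups overlapped. The difference was -0.15, beside -0.23 before the subtraction. The mean that CCT7 was set against includes CCT3, whose lower values take part in this smaller difference and in the overlap. The overlap therefore does not show that CCT7 moved with the uncalled members. CCT2 and CCT6A were 0.21 and 0.23 higher relative to the others, with overlap, a difference in which the lower CCT3 and CCT7 values take part. In all, 1 of 7 members did not overlap between groups on this scale; for the 7528 other probe sets tested, each set against the mean of the 7 members, the share was 23.1%. The order of these relative positions depends on the probes and says nothing of the amounts of the subunits.

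**Figure D3:**
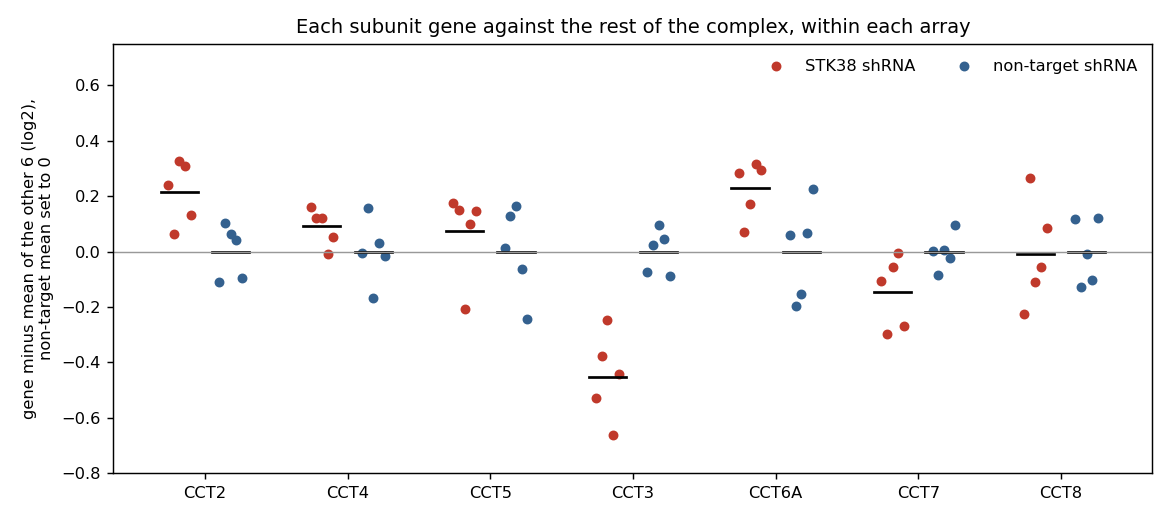
Each subunit gene minus the mean of the other 6 on the same array (log2), shifted so that the non-target mean is 0, with STK38 shRNA left of non-target shRNA. Points are arrays and lines are group means (n = 5 each). CCT3 is separated between the groups and the other genes overlap, each of them set against a mean that includes CCT3.

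The 5 genes whose centred profile over the 10 arrays was closest to the mean profile of the 7 members were ILF2, TGFBRAP1, PDE4A, APOBEC3F and FCMR, among 5396 genes. Their root mean square differences from that profile were 0.046, 0.051, 0.053, 0.054 and 0.056 on the log2 scale, where the members' mean profile itself had a root mean square of 0.072 and ran from -0.12 to 0.11. None of the 5 was called (limma adjusted p from 0.276 to 0.571). ILF2, an RNA-binding protein, had a mean log2 value of 8.71, and the others had means of 2.01 to 2.06, below the array background of 2.37 to 2.66. The likeness thus rests on profiles that vary little over the arrays. CCT6B, the close relative of CCT6A known from testis and added outside the naming rule, had 2.79, 3.35, 2.71, 2.74 and 2.91 with the STK38 shRNA, against 2.86, 2.77, 2.95, 2.84 and 3.14 with the non-target shRNA. Its groups overlapped, with a log2 difference of -0.012 (limma adjusted p = 0.963).

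Partners and substrates of the complex moved in both directions, and their counts are to be read beside the 15.8% of all probe sets tested that fell, the 14.1% that rose and the median of 0.019 over all genes. Of 5 genes tested for prefoldin, which hands unfolded actin and tubulin to TRiC, and for prefoldin-like proteins, 2 fell and 1 rose, with a median log2 difference of -0.15. VBP1, a prefoldin subunit, had 6.83, 7.04, 6.74, 6.58 and 6.83 with the STK38 shRNA, against 7.45, 7.36, 7.79, 7.77 and 7.53 with the non-target shRNA, so that no arrays overlapped (log2 difference -0.78, limma adjusted p = 7.29e-05). URI1, a prefoldin-like scaffold, fell by 0.56 (limma adjusted p = 0.00197), while PFDN5, a prefoldin subunit also known to bind MYC, rose by 0.43 (limma adjusted p = 0.000237). PFDN4 had a log2 difference of -0.15 and was not called (limma adjusted p = 0.461). Of the 2 phosducin-like or related cofactors tested, PDCL and TXNDC9, 0 were called by limma and 1, PDCL, had an unadjusted p under 0.05, with log2 differences of 0.35 for PDCL and -0.24 for TXNDC9. PDCL was called higher without STK38 shRNA replicate 2 (0.45, limma adjusted p = 0.0465).

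Cofactors that assemble tubulin after its release from TRiC also split: of 6 tested, 2 fell and 3 rose, with a median log2 difference of 0.088. TBCA, which takes up beta-tubulin, fell 2.46-fold (log2 difference -1.30, SE 0.11, limma adjusted p = 8.14e-07), and ARL2, a small GTPase of the same machinery, rose 2.14-fold (1.10, SE 0.14, limma adjusted p = 2.66e-05). TBCD fell by 0.64 at the brighter of its probe sets, where 4 of 5 STK38 shRNA arrays exceeded background; the dimmer one had -0.033 and was not called. TBCC rose by 0.45, a call that was lost without STK38 shRNA replicate 2 (adjusted p = 0.0544) and without non-target replicate 1 (0.0549) or replicate 2 (0.0593).

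Among the substrates, ACTB, the abundant cytoplasmic actin, had a log2 difference of 0.055 (limma adjusted p = 0.574), and ACTL6A, an actin-related protein of chromatin complexes, was the 1 of 4 actin-family genes tested that was called, lower by 0.62. ACTR3, of the same family, had 0.19 (limma adjusted p = 0.446). Of 10 tubulin genes 1 rose and 2 fell, with a median of -0.039. TUBA1A had 9.70, 9.44, 9.23, 9.39 and 9.61 with the STK38 shRNA, against 8.76, 8.55, 8.71, 8.71 and 8.83 with the non-target shRNA, with no overlap (log2 difference 0.77, limma adjusted p = 1.06e-05). TUBB fell by 0.30 (limma adjusted p = 0.0187), and was not called without non-target replicate 3 (adjusted p = 0.0534), without non-target replicate 4 (0.0518), without a trend (0.0538) or after quantile normalization (0.0852). A second, dimmer TUBB probe set had -0.26 and was called too (limma adjusted p = 0.0224). TUBA4A was lower but above background on 0 STK38 shRNA and 2 non-target arrays. TUBB3 had a log2 difference of 0.17 and was not called (limma adjusted p = 0.140). It was called higher after quantile normalization (0.23, limma adjusted p = 0.0315) and with a single array left out (limma adjusted p = 0.0382). Probe sets of tubulins and actins can bind transcripts of close relatives. Of 15 other substrates, most with WD40 repeats, 6 rose and 2 fell, with a median of 0.28. The mitotic checkpoint protein gene BUB3 fell by 0.81 and GNB1, a G protein beta subunit, by 0.56, while GNB5 rose by 0.60 and STAT3, above background on 2 of 5 non-target arrays, by 1.05. Second probe sets of BUB3 and STAT3 had -0.90 and 0.74 and were called too.

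Of 13 heat shock factor, HSP70 and HSP90 system genes tested, 4 rose and 5 fell, with a median of -0.086. HSP90AB1 fell 2.25-fold at its brightest probe set (log2 difference -1.17, limma adjusted p = 4.48e-08) and by 0.98 to 0.43 on the log2 scale at the others. The HSP90 cofactors CDC37 and STIP1 fell by 0.64 and 0.61, and ST13, an HSP70 cofactor, rose by 0.50. Of 5 genes of the mitochondrial chaperonin and its partners, HSPD1, which encodes the mitochondrial relative of the TRiC subunits, was the 1 called, lower by 0.15 (limma adjusted p = 0.0160). That call was lost without a trend (adjusted p = 0.146) and after quantile normalization (0.145). HSPE1, HSPA9, GRPEL1 and TRAP1 had log2 differences of -0.18 to 0.10 and did not pass the test. HSPA9 passed it without non-target replicate 4 (-0.21, limma adjusted p = 0.0476) and with array weights (-0.19, adjusted p = 0.0404). A second, dimmer HSPA9 probe set had -0.12 and was not called (limma adjusted p = 0.546). The CCT3 difference of -0.49 was thus smaller in size than those of TBCA, HSP90AB1, BUB3 and VBP1 in the same fit.

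**Figure D4:**
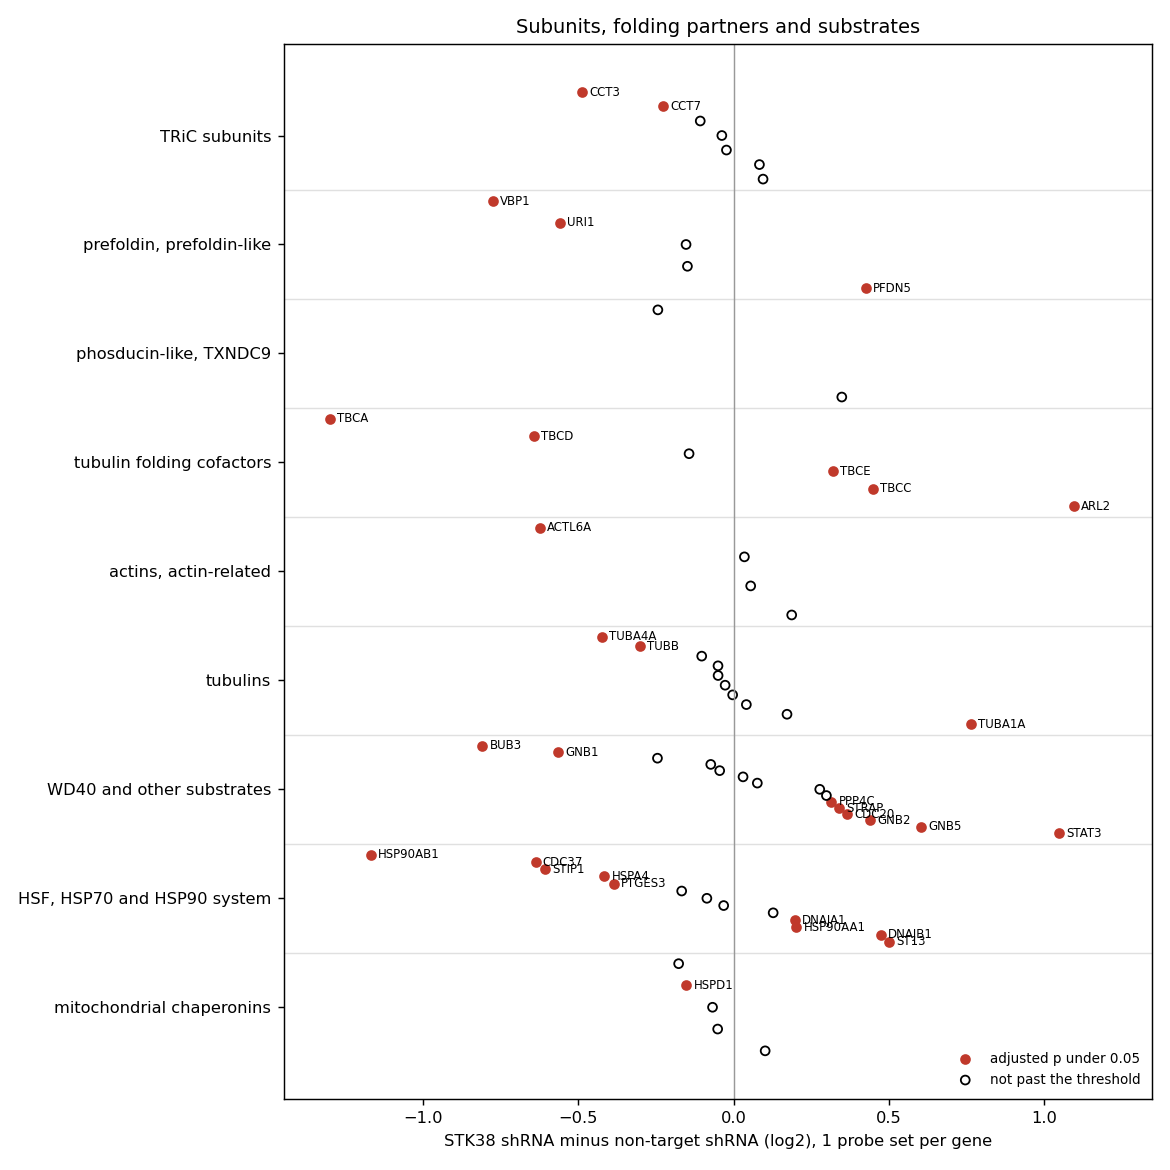
Log2 difference of STK38 shRNA minus non-target shRNA for each tested gene, at 1 probe set per gene, with the subunits in the top row and each list of partners or substrates below. Filled points, with names, had an adjusted p under 0.05 in limma and open points did not; within a row the points are spread by rank, and called genes lie on both sides of 0 in 5 of the 8 lists below the subunits.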

How the data were processed

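Gene expression was measured on 1-colour Affymetrix U95Av2 arrays from 5 µg of total RNA per array. The deposited log2 values were made by the authors with GCRMA and affy, per the submitters' processing notes, with no version given; no scale is stated, and log2 is inferred from their range and from GCRMA. GCRMA draws dim probe sets towards a floor. Groups came from the labels. Gene names of probe sets are those of the platform annotation, brought up to date by Entrez identifier to RefSeq GRCh38.p14; 10943 named 1 gene, 545 several and 1070 none.

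Probe sets with a mean under the 40th percentile (1.93) were left out, and the remaining 7535 were compared in R 4.3.3 with limma 3.58.1 (eBayes with trend, no covariate), with Benjamini-Hochberg adjustment over all of them and a threshold of 0.05. The procedure was tested on simulated data. Array background was the 90th percentile of 23 control probe sets (mouse, yeast and reverse-strand). Lists of partners and substrates were drawn up by hand; described are up to 4 genes per list, called genes first, then larger differences, all members, STK38 and MYC, and the 5 genes of most similar profile. Members and lists were chosen with earlier results of these data known. Promoter windows are RefSeq sequences. Alternatives covered scaling, array weights, filter, variance model, threshold, the replicate number as a block, and each array left out in turn. Same-numbered arrays were not treated as pairs: their deviations from the group means correlated at -0.21 to 0.19. Plots were drawn with matplotlib 3.10.9.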

Additional observations from a re-analysis of the deposited data

Results flagged for a closer look

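Among the 45 probe sets of named genes, each group of 5 arrays was searched for a single array far from the rest, and 5 of 90 groups held one, where chance gives about 1 in 20. No subunit gene was among them. With the STK38 shRNA, replicate 4 was the distant array for STK38 at its brightest probe set (2.46, with the others at 2.88 to 2.95), for BUB3 (6.97, with the others at 7.54 to 7.69) and for ST13 (7.56, with the others at 7.79 to 7.87). STK38 shRNA replicate 3 was distant for MYC at 1 of its probe sets (6.97, with the others at 6.38 to 6.48). Non-target replicate 5 was distant for ACTB (11.1, with the others at 11.3 to 11.4).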

How the results depend on the processing

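The count of 2 subunit genes lower held in all 19 alternatives, and CCT3 (-0.53 to -0.42, adjusted p up to 0.00174) and CCT7 (-0.25 to -0.17, adjusted p up to 0.0337) were the genes called in each. At the 0.05 threshold the share of all tested probe sets called ran from 17.0% with no filter to 42.4% with the 60th percentile filter. It was 29.9% in the main fit, so the nearness of the members' 28.6% to that share depends on the setting. The count of genes higher was 0 except with quantile normalization, where it was 1, CCT2; the cause was not tested. With single arrays left out the count lower stayed at 2, the count higher at 0, and the members' median ran from -0.10, without non-target replicate 5, to 0.0052. With the replicate number as a block the counts were again 2 and 0 and the median -0.038, with CCT7 at an adjusted p of 0.0211. Differences near 0 changed sign: CCT4 was 0.0045 with array weights and 0.048 with quantile normalization, and -0.053 to 0.027 with single arrays left out; CCT5 was 0.0029 with quantile normalization and -0.11 to 0.040 with single arrays left out; ACTA1, not above background on any array, was -0.0072 with array weights. With single arrays left out ACTB ran from -0.0012, without non-target replicate 5, to 0.092, and ACTA1 from -0.010 to 0.076, below 0 without STK38 shRNA replicate 2 or 4. Of the 22 called partner, substrate and target genes named, 18 kept their call in all alternatives run for them and 0 changed sign, where TUBA4A has no value under the 60th percentile filter, which removed it; TBCD was lost at a threshold of 0.01 alone, and TBCC, TUBB and HSPD1 under that and others. TUBB was at 0.0538 without a variance trend, 0.0852 with quantile normalization, 0.0534 and 0.0518 without non-target replicates 3 and 4, and HSPD1 at 0.146 and 0.145 under the first 2 of these. The number of arrays limits the precision of the uncalled subunit genes.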
